A study of Mus musculus with 17 samples.

Results

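The 20S proteasome cuts proteins into peptides at 3 catalytic sites, and its constitutive form carries Psmb6, Psmb7 and Psmb5 there. When interferon reaches a cell, the inducible subunits Psmb9, Psmb10 and Psmb8 are built into new particles in place of Psmb6, Psmb7 and Psmb5 respectively, which gives the immunoproteasome, an enzyme known for making peptides that fit MHC class I. The caps on the ends of the barrel are part of the same system: Psme1 and Psme2 form the interferon-inducible PA28αβ ring, Psme3 is the nuclear PA28γ, and Psme4 is PA200, known for chromatin-linked proteolysis. These 10 genes were chosen by symbol, and all 10 were found among the 22558 genes used. The rule itself uses no measured value, but the members were chosen with earlier results of these data known.

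The kidneys came from male mice in 3 groups, and mRNA was sequenced from 17 animals. Ctrl held 5 C57BL/6 mice, Case held 6 diabetic db/db mice of the strain BKS.Cg-Dock7m +/+ Leprdb/J, and Dapa held 6 db/db mice given 1 mg/kg/day of dapagliflozin, which blocks SGLT2, the transporter that takes glucose back up in the proximal tubule. Treatment began at 8 weeks of age and lasted 6 weeks, with saline for Ctrl and Case and standard chow for every group. Case and Dapa thus share the leptin receptor defect and the BKS background, and in any comparison with C57BL/6 the allele and the strain cannot be told apart. Lepr, the gene that carries the db allele, is counted as a whole gene, so its level does not check the genotype. Lepr stood at 1.01 ± 0.57 FPKM (SD, n = 5) in Ctrl, 2.57 ± 1.81 in Case and 2.64 ± 1.74 in Dapa (SD, n = 6 each).

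FPKM is a fragment count scaled to the length of the gene model and to the library's total. The libraries held between 13039535 and 17779635 counts, of which mitochondrial genes took 17.9% to 27.6%. The median mitochondrial share was 19.3% for the Ctrl libraries, where no mouse exceeded 20.4%, and 22.4% and 23.9% for those of Case and Dapa, where the lowest mice had 19.8% and 19.7%. Summed over 8 proximal tubule markers, the level was at least 1748 FPKM in every mouse, so the main cell type of the kidney was present in each library. Each library is a whole kidney, so fewer cells of a type and less RNA per cell cannot be told apart in any value given here.

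The promoters of 5 members are shown first, 4 for the interferon or antioxidant motif they hold and that of Psmb9 for the stretch it shares with Tap1. They run from 250 bases before to 30 bases after the RefSeq start site on build GRCm38.p6, 5′ to 3′ on the gene's strand, and are reference sequence rather than sequence of the db/db mice. In Psme1, capitals mark a match to GAAANNGAA, the core of an interferon response element, which lies on the opposite strand. In Psmb5, Psmb6 and Psme4 they mark a match to TGACNNNGC, the antioxidant response motif read by Nfe2l1 and Nfe2l2, on the opposite strand in Psme4. In Psmb9, capitals mark the 275 bases that are also part of the Tap1 window, since Psmb9 and Tap1, a peptide transporter gene, start back to back on opposite strands.
Psme1 (chr14:55578244-55578523, + strand): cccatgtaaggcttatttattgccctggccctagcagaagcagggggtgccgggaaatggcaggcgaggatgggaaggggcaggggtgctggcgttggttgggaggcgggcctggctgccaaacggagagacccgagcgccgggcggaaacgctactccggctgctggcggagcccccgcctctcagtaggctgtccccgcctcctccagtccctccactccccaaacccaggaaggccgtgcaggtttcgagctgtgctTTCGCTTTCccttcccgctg
Psmb9 (chr17:34187301-34187580, − strand): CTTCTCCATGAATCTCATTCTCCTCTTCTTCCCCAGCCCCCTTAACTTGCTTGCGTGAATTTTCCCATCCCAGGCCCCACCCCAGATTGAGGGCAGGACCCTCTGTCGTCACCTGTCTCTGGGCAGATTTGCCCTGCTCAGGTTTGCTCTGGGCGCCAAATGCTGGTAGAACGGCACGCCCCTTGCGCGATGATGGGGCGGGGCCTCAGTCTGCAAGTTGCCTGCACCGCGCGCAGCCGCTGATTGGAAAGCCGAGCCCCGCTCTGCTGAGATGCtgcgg
Psmb5 (chr14:54617966-54618245, − strand): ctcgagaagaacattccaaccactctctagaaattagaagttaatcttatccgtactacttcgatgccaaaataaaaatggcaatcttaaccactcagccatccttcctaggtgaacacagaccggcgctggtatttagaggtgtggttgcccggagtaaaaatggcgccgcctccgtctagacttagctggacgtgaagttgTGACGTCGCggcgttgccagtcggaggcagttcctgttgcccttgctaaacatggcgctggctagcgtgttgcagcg
Psmb6 (chr11:70525107-70525386, + strand): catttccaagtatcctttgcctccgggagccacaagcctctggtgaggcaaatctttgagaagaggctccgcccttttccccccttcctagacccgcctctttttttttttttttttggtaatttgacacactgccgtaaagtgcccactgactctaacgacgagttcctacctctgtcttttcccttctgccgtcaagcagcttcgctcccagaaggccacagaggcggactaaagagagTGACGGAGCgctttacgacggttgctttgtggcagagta
Psme4 (chr11:30771525-30771804, + strand): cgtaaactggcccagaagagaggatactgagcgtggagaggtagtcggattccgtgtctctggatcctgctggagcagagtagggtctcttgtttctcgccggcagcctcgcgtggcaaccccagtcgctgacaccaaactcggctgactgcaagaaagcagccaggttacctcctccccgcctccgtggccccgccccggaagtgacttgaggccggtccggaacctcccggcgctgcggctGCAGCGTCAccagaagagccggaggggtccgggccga

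No motif match overlapped another in these windows. Each motif was searched on both strands of the full window, which ends 50 bases after the start. GAAANNGAA was held by 8.56% of 32851 promoter windows and TGACNNNGC by 12.4%. Neither motif was found in the windows of Psmb8, Psmb9, Psmb10, Psme2 or Psme3, and Psmb7 had no matching entry. The match in Psme1 began at base 11 of the transcript, and those in Psmb5, Psmb6 and Psme4 began 47, 9 and 7 bases before the start site. A match is a description of letters only.

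In healthy kidney the constitutive subunits were by far the more abundant catalytic subunits. On the FPKM scale, the Ctrl level of Psmb5, which carries the chymotrypsin-like site, was 83.3 ± 5.52, that of Psmb7, the trypsin-like site, 31.1 ± 2.13 and that of Psmb6, the caspase-like site, 26.4 ± 2.23 (SD, n = 5 each). Their inducible counterparts Psmb8, Psmb10 and Psmb9 stood at 1.76 ± 0.45, 4.77 ± 0.82 and 0.70 ± 0.14 FPKM. Among the caps, Psme4 stood at 25.6 ± 2.47 FPKM and Psme3 at 21.3 ± 1.56 FPKM. On this scale the interferon-inducible caps were lower, Psme1 at 4.13 ± 0.64 FPKM and Psme2 at 2.94 ± 0.28 FPKM. In this order the ranges of the neighbours Psmb7 and Psmb6, Psmb6 and Psme4, Psme4 and Psme3, and Psmb10 and Psme1 overlapped between Ctrl mice.

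The order of the catalytic genes on the FPKM scale depends on the gene lengths behind the deposited values. These lengths, worked back from counts and FPKM, were 871 bases for Psmb5 and 1270 for Psmb10 but 3107 for Psmb6, 3560 for Psmb7, 3848 for Psmb8 and 6303 for Psmb9. The GENCODE vM21 transcripts with the longest coding sequence measure 899, 1311, 798, 1160, 1628 and 1352 bases in the same order. When the counts were instead divided by these transcript lengths, a setting added after seeing the data, Ctrl levels, scaled as FPKM are, were 80.7 ± 5.35 for Psmb5, 103 ± 8.68 for Psmb6 and 95.5 ± 6.53 for Psmb7. The inducible subunits then stood at 4.17 ± 1.06 for Psmb8, 3.25 ± 0.67 for Psmb9 and 4.62 ± 0.80 for Psmb10. Per transcript length, the members of each trio thus lay within a narrower band than per FPKM. For the interferon-inducible caps, the lengths behind FPKM were 5949 bases for Psme1 and 3518 for Psme2, against transcripts of 1112 and 962 bases. Per transcript length, Ctrl levels were 22.1 ± 3.41 for Psme1, 10.8 ± 1.03 for Psme2, 29.6 ± 2.17 for Psme3 and 36.1 ± 3.48 for Psme4. Psme1 and Psme2 thus lay closer to Psme3 and Psme4 than on the FPKM scale, and the Ctrl ranges of Psme1 and Psme3 overlapped. A change of length scales every mouse alike and leaves the comparisons between groups as they are.

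The first comparison, Case with Ctrl, asks how the diabetic kidney differed from the healthy kidney. All 3 inducible catalytic subunits and both PA28αβ genes were higher in Case, with fitted log2 differences of 2.55 to 3.10 and of 0.96 to 1.06. The 3 constitutive subunits did not pass the test, and Psme4 was lower. In all, 6 of the 10 members passed edgeR's quasi-likelihood test at a Benjamini-Hochberg adjusted p under 0.05, 5 higher and 1 lower, against a background of 13% of the 14582 genes tested (6.09% higher and 6.91% lower). Requiring also that the mean FPKM of the groups differ by more than 2-fold left 5 members, against 3.79% of genes.

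Psmb8, the chymotrypsin-like inducible subunit (β5i, chromosome 17), stood at 1.82, 1.19, 1.89, 1.52 and 2.39 FPKM in Ctrl mice 1 to 5. In Case mice 1 to 6 it stood at 40.3, 8.39, 32.3, 1.57, 13.9 and 1.62 FPKM. Case mice 1, 2, 3 and 5 lay above every Ctrl mouse, and Case mice 4 and 6 lay within the Ctrl range. The fitted log2 difference was 3.10 (SE 0.77, 95% interval 1.45 to 4.76), with an edgeR adjusted p of 0.0205. Within Case the SD was 99.9% of the mean, and the highest mouse was 25.7 times the lowest, whereas the ratio in Ctrl was 2.01.

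Psmb9, the caspase-like inducible subunit (β1i), lies beside Tap1 in the MHC region of chromosome 17. In Ctrl it ranged from 0.51 to 0.86 FPKM around a median of 0.69, and in Case mice 1 to 6 it stood at 6.98, 1.95, 10.1, 0.56, 6.49 and 0.46 FPKM. Again Case mice 1, 2, 3 and 5 were above the highest Ctrl mouse, and Case mouse 6 was below the lowest. Its log2 difference was 2.55 (SE 0.70, 95% interval 1.03 to 4.06; edgeR adjusted p = 0.0319). The gene model overlaps the start of Tap1 on the other strand, and whether the counting used the strand of the stranded libraries is not given in the sources used here, so part of its reads could belong to Tap1.

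Psmb10, the trypsin-like inducible subunit (β2i, chromosome 8), ranged from 3.70 to 6.01 FPKM in Ctrl around a median of 4.74. In Case mice 1 to 6 it stood at 44.2, 12.2, 68.4, 7.88, 44.6 and 4.78 FPKM. Here 5 of the 6 Case mice exceeded every Ctrl mouse, mouse 4 by the least, and Case mouse 6 was level with the Ctrl mean. Its log2 difference was 2.56 (SE 0.60, 95% interval 1.27 to 3.85; edgeR adjusted p = 0.0161). The antisense genes that overlap Psmb8 and Psmb10, Gm20496 and Gm16156, had at most 1 and 4 counts in any library.

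**Figure D1:**
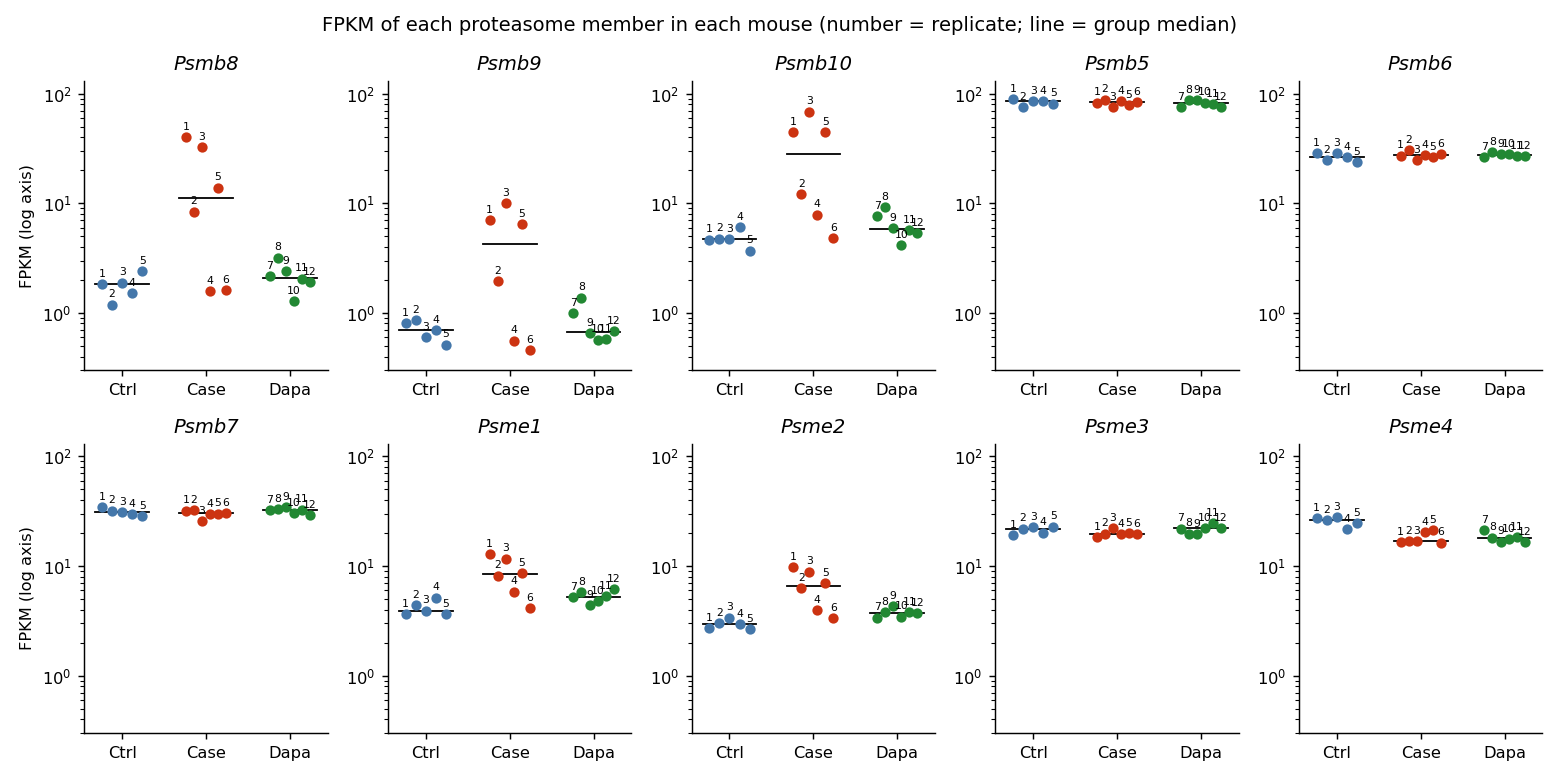
FPKM (log axis) of the 10 members in each mouse, with 1 panel per gene, points for mice numbered by replicate, and a line at each group's median. Psmb8, Psmb9 and Psmb10 spread from 0.46 to 68.4 FPKM, with Case mice 1, 2, 3 and 5 on top, while Psmb5, Psmb6 and Psmb7 stay level over all 17 mice.

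The constitutive partners varied little across the same mice. Psmb5 had a median of 85.0 FPKM in Ctrl (lowest 75.0, highest 89.5) and of 82.9 FPKM in Case (lowest 75.0, highest 87.8). The groups overlapped almost wholly, and the log2 difference was −0.10 (95% interval −0.28 to 0.08; edgeR adjusted p = 0.461). Psmb6 had medians of 26.4 FPKM in Ctrl and 27.3 FPKM in Case, with a log2 difference of −0.03 (95% interval −0.24 to 0.17; edgeR adjusted p = 0.848). Psmb7 had medians of 31.1 FPKM in Ctrl and 30.1 FPKM in Case, and its log2 difference was −0.14 (95% interval −0.34 to 0.07; edgeR adjusted p = 0.381). For all 3, then, the intervals leave room for changes of at most 0.34 in either direction on the log2 scale. Psmb5 shares 54.1% of its 50-base transcript stretches with other annotated genes, mostly with Gm3375, so its counts depend on how such reads were assigned.

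Read over all 17 mice, the trios lay near opposite ends of the variation seen in kidney genes. From the lowest to the highest mouse, Psmb8 spanned 33.9-fold, Psmb9 22.1-fold and Psmb10 18.5-fold, and more than 98% of the 11455 genes with a mean FPKM of at least 1 spanned less. Psmb9 met that mean only through Case (4.42 FPKM), as its mean was 0.70 FPKM in Ctrl and 0.81 FPKM in Dapa. The place of Psmb9 among these genes is thus partly set by the filter. Psmb5 spanned 1.19-fold, Psmb6 1.28-fold and Psmb7 1.36-fold, against a median of 1.96-fold over those genes. Only 0.07% of genes spanned less than Psmb5 and 5.23% less than Psmb7. These spans are a description across mice of 3 groups.

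The share of the inducible subunit in each catalytic pair shows the same contrast mouse by mouse. From FPKM, Psmb8 made up 1.56% to 2.86% of the sum of Psmb8 and Psmb5 in Ctrl mice, and 32.8%, 8.72%, 30.1%, 1.82%, 15.0% and 1.91% in Case mice 1 to 6. For Psmb9 with Psmb6, the share ran from 2.07% to 3.35% in Ctrl and was 20.5%, 6.02%, 29.1%, 2.00%, 19.8% and 1.60% in Case mice 1 to 6. For Psmb10 with Psmb7, it ran from 11.5% to 16.8% in Ctrl and was 58.0%, 27.3%, 72.9%, 21.1%, 59.8% and 13.6%. Case mice 1, 2, 3 and 5 were above all Ctrl mice in each pair, and Case mouse 4 only in the Psmb10 pair.

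In Dapa mice the shares lay in a narrow band, at 1.53% to 3.54% for Psmb8, 1.99% to 4.53% for Psmb9 and 12.0% to 21.7% for Psmb10. Dapa mouse 8 had the highest share in every pair. The level of a share depends on length: per length of the transcript with the longest coding sequence, the Ctrl means were 4.89%, 3.06% and 4.62% for the 3 pairs, the Case means 27.2%, 15.1% and 21.9%, and the Dapa means 6.05%, 3.38% and 5.81%. On that scale the high share of Psmb10 in Ctrl disappeared, and the Case mice kept a wide spread, up to 54.4% for Psmb8. Messenger RNA shares do not give the make-up of assembled particles.

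**Figure D2:**
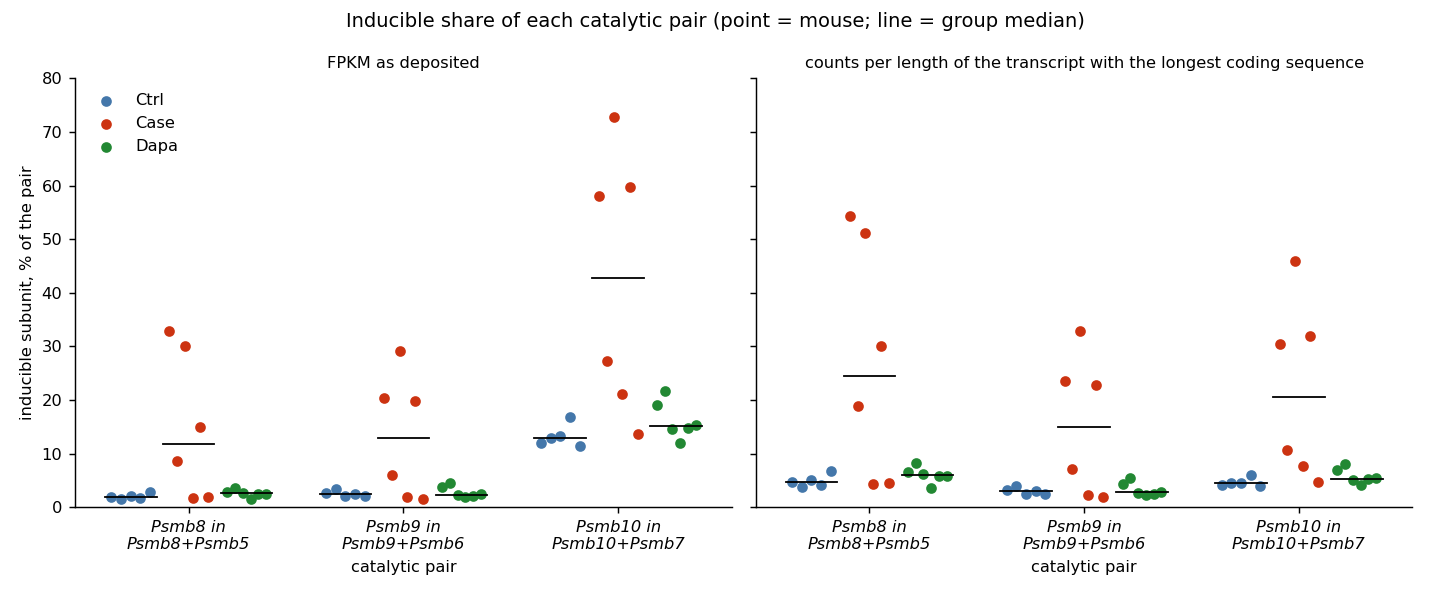
Inducible subunit as a percentage of its catalytic pair, with the pairs along the horizontal axis, points for mice, colours for groups and lines at group medians. The left panel uses FPKM as deposited and the right panel counts per length of the transcript with the longest coding sequence. In both, 4 of the 6 Case mice stand above all Ctrl and Dapa mice in each pair.

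Both subunits of PA28αβ, which opens the barrel for peptide products, were higher in Case. Psme1 ranged from 3.63 to 5.14 FPKM in Ctrl (median 3.91) and from 4.11 to 12.9 FPKM in Case (median 8.40). Case mice 1 to 5 lay above every Ctrl mouse, and Case mouse 6 lay within the Ctrl range. The log2 difference was 0.96 (SE 0.23, 95% interval 0.45 to 1.46; edgeR adjusted p = 0.0195).

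Psme2 ranged from 2.67 to 3.37 FPKM in Ctrl (median 2.93) and from 3.34 to 9.81 FPKM in Case (median 6.59). The same 5 Case mice exceeded all Ctrl mice, and both caps ranked the 6 Case mice in the same order, 1, 3, 5, 2, 4 and 6. The log2 difference was 1.06 (SE 0.24, 95% interval 0.54 to 1.57; edgeR adjusted p = 0.0143). The FPKM ratio of Psme1 to Psme2 was 1.16 to 1.76 in Ctrl and 1.23 to 1.48 in Case, so the groups overlapped in this ratio. Psme2 shares 28.3% of its 50-base transcript stretches with Psme2b, a near-identical copy on chromosome 11, which itself ran from 27.2 to 33.4 FPKM in Ctrl and from 32.1 to 103 FPKM in Case. Psme2 held 27.6% to 32.3% of the summed counts of Psme2 and Psme2b in Ctrl, and 26.6% to 32.8% in Case. The level of Psme2 and its ratio to Psme1 thus depend on how such reads were assigned, and on gene length. With Psme2 and Psme2b summed as 1 gene, the count of members called was again 6.

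The other caps differed from this pattern. Psme3 had medians of 21.9 FPKM in Ctrl and 19.7 FPKM in Case, and its log2 difference of −0.18 (95% interval −0.34 to −0.02) had an edgeR adjusted p of 0.126. Psme4 stood at 27.2, 26.1, 28.1, 21.8 and 24.7 FPKM in Ctrl mice 1 to 5, and at 16.3 to 21.3 FPKM in Case with a median of 16.9. No Case mouse reached the lowest Ctrl mouse, whereas FPKM ranges without overlap in the lower direction were found for 3.46% of genes tested. The log2 difference of Psme4 was −0.59 (SE 0.11, 95% interval −0.82 to −0.35; edgeR adjusted p = 0.0053). Unlike the inducible genes, Psme4 was low in Case mice 4 and 6 as well. The mitochondrial share, given above, had a higher median in both db/db groups than in Ctrl, with overlapping ranges, and its part in the value of Psme4 was not tested.

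**Figure D3:**
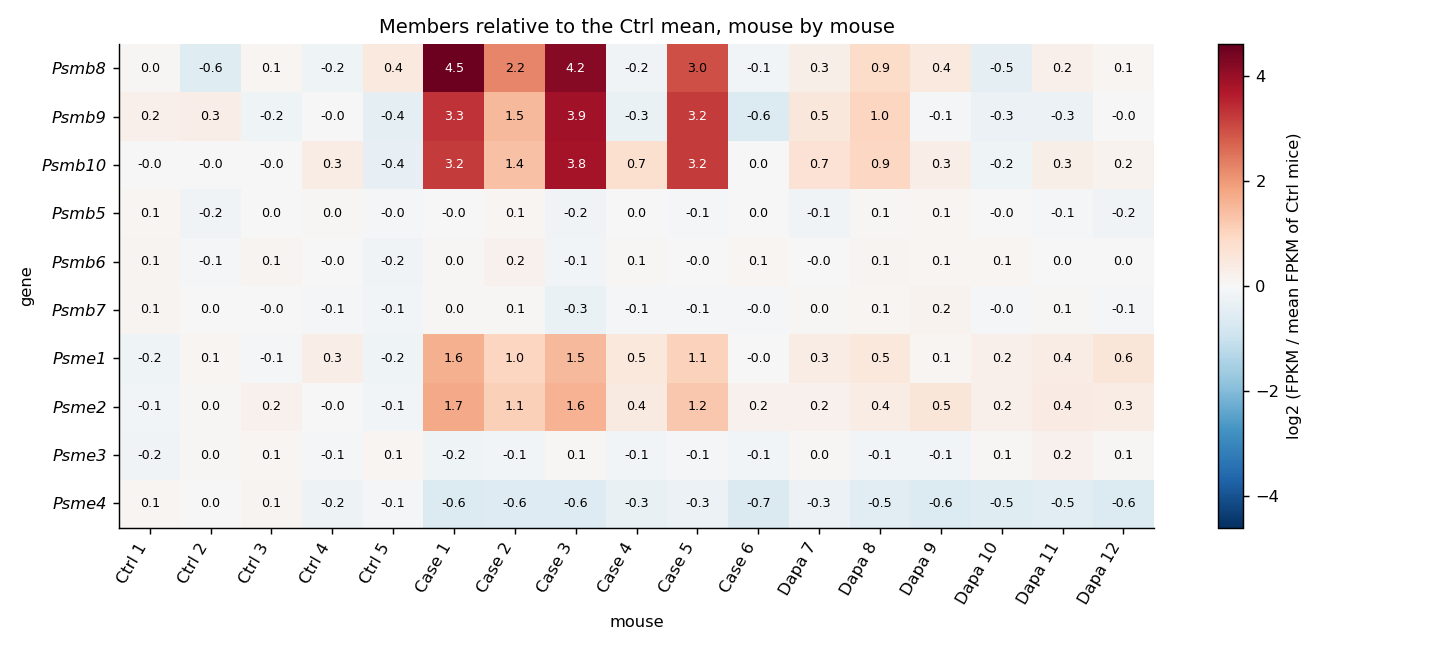
Level of each member (rows) in each mouse (columns) as log2 of FPKM over the Ctrl mean, with red for higher and blue for lower and the value written in each cell. The red block covers Psmb8, Psmb9, Psmb10, Psme1 and Psme2 in Case mice 1, 2, 3 and 5, up to 22.9 times the Ctrl mean for Psmb8, and Psme4 is pale blue in every Case and Dapa mouse.

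Under limma on log2(FPKM + 1), the calls lost were those of the inducible trio itself, with limma adjusted p-values of 0.0810 for Psmb8, 0.115 for Psmb9 and 0.0503 for Psmb10, and with a pseudocount of 0.1 Psmb8 (0.0772) and Psmb9 (0.123) lost theirs. Leaving out a single library changed several calls too. Psmb10, Psme2 and Psme4 were called in all 11 such fits, Psmb8 in 9, Psme1 in 8 and Psmb9 in 4. Psmb9 lost its call whenever any single one of Ctrl mice 1 to 5, Case mouse 1 or Case mouse 3 was left out (edgeR adjusted p up to 0.0779), Psmb8 without Ctrl mouse 2 or 3 (0.0544 and 0.0523), and Psme1 without Ctrl mouse 1, 3 or 5 (0.0505, 0.0516 and 0.0542).

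Markers of immune cells were measured beside these genes. Summed over 10 macrophage markers, the level was 27.3 to 47.0 FPKM in Ctrl and 28.9 to 203 FPKM in Case, the latter in Case mouse 3, and 1 of the 10, Cd14, passed the test (log2 difference 1.41, edgeR adjusted p = 0.0284), a share close to the 13% of all genes called. The log2 difference was above 0 for 8 of the 10, with a median of 0.59 against 0.03 over all genes and the highest value in Itgam (2.30; edgeR adjusted p = 0.0781). The macrophage sums of Case mice 1, 2 and 3 (57.4, 57.99 and 203 FPKM) exceeded every Ctrl mouse, so 3 of the 4 mice with high inducible subunits did. Case mouse 5, with 13.9 FPKM of Psmb8, had 31.4 FPKM, and Case mice 4 and 6 had 31.98 and 28.9 FPKM, all inside the Ctrl range. Summed over 12 T and NK cell markers, of which 10 were under 1 FPKM in every mouse, Ctrl ran from 1.88 to 3.11 FPKM. Case mouse 1, with the highest Psmb8 of all, had 0.93 FPKM, below every Ctrl mouse, and Case mouse 3 had 6.30 FPKM.

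The 5 neutrophil markers in the table summed to 0.07 to 1.75 FPKM in Ctrl and were highest in Case mouse 3 (13.8 FPKM) and Case mouse 1 (10.7 FPKM). Case mice 5 and 4 (2.28 and 2.01 FPKM) also exceeded every Ctrl mouse, and Case mice 2 and 6 (1.17 and 0.18 FPKM) did not. S100a9, the 1 neutrophil marker that could be tested, differed by 2.62 (95% interval 0.49 to 4.75; edgeR adjusted p = 0.0977). B and plasma cell markers summed to 8.04 to 20.5 FPKM in Ctrl and 2.79 to 12.99 FPKM in Case, and Jchain and Igkc, 2 of the 3 that could be tested, were lower by the test, against 6.91% of all genes. The 6 dendritic cell markers had a median sum of 2.58 FPKM in Ctrl (range 1.32 to 2.76), which was 1.62 FPKM in Case (range 1.24 to 2.89) and 1.42 FPKM in Dapa (range 1.12 to 2.00). Case mouse 3 was thus highest of its group in each of these 5 sums, while the other Case mice with high inducible subunits were not high in all of them. Leaving out Case mouse 3, Psmb8 and Psmb10 kept their calls, and Psmb9 had an edgeR adjusted p of 0.0581. Of 8 proximal tubule markers, 3 were lower in Case (Lrp2, Slc22a6 and Slc27a2, by −0.98 to −0.82 in log2), against 6.91% of all genes. Of 7 distal nephron markers 3 were higher (Calb1, Aqp2 and Atp6v1g3, by 0.51 to 1.55), and of 5 podocyte markers 2 were higher (Nphs1 at 0.59 and Podxl at 0.40), against 6.09% of all genes. The proximal tubule markers summed to 2073, 2145 and 1748 FPKM in Case mice 1, 2 and 3, and to 3022, 2608 and 2409 FPKM in Case mice 4, 5 and 6. The distal nephron markers summed to 2603, 1935 and 3052 FPKM in the former, and to 1461, 1207 and 1350 FPKM in the latter. Case mouse 5, with high inducible subunits, thus lay with Case mice 4 and 6 in both sums. The part of these shifts in the values of the members was not tested.

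The next comparison, Dapa with Case, asks what dapagliflozin changed in db/db kidneys. All 5 members that were higher in Case than in Ctrl were at lower levels in Dapa, but no member and no gene of the 14573 tested passed edgeR's quasi-likelihood test (0%), with a lowest adjusted p of 0.173. At an unadjusted p under 0.05, 5 of the 10 members and 12.9% of all genes passed, or 6.66% of genes in the lower direction. Other tools called members here: DESeq2 called 4 (Psmb8, Psmb9, Psmb10 and Psme2) among 202 genes, and edgeR's exact test called 3 (Psmb8, Psmb9 and Psmb10) among 125. This comparison shares the 6 Case mice with the first, so the same high Case libraries enter both.

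Psmb8 ranged from 1.28 to 3.20 FPKM in Dapa (median 2.10), against a Case median of 11.1 FPKM. Every Dapa mouse was below Case mice 1, 2, 3 and 5, but Case mice 4 and 6 lay inside the Dapa range, so the groups overlapped. Its log2 difference, Dapa minus Case, was −2.91 (SE 0.68, 95% interval −4.38 to −1.44; edgeR adjusted p = 0.179). Psmb9 ranged from 0.57 to 1.38 FPKM in Dapa, with a log2 difference of −2.43 (SE 0.64; edgeR adjusted p = 0.212). Psmb10 ranged from 4.12 to 9.20 FPKM in Dapa, with a log2 difference of −2.25 (SE 0.54; edgeR adjusted p = 0.181). In Psmb9 both Case mice 4 and 6 lay below all Dapa mice, and in Psmb10 they lay among them.

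Psme1 ranged from 4.38 to 6.12 FPKM in Dapa, with a log2 difference from Case of −0.71 (SE 0.21; edgeR adjusted p = 0.232). Psme2 ranged from 3.38 to 4.29 FPKM, with a log2 difference of −0.81 (SE 0.22; edgeR adjusted p = 0.212). The remaining members had differences near 0. Psmb5 differed by −0.04 (95% interval −0.22 to 0.14), Psmb6 by −0.01 (−0.19 to 0.16) and Psmb7 by 0.07 (−0.12 to 0.27) on the log2 scale. Psme3 differed by 0.10 (−0.05 to 0.26) and Psme4 by −0.02 (−0.23 to 0.18). Psme4, the member that was lower in Case, had a similar group mean in Dapa, 18.06 ± 1.73 FPKM against 18.04 ± 2.21 FPKM in Case (SD, n = 6 each).

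The spread itself differed between the db/db groups as a matter of description. The highest to lowest ratio of Psmb8 was 25.7 among Case mice and 2.49 among Dapa mice, that of Psmb9 22.1 and 2.41, and that of Psmb10 14.3 and 2.23. Dapa mouse 8 held the highest level of Psmb8, Psmb9 and Psmb10 in its group. It also held the highest macrophage sum of the Dapa mice (62.7 FPKM), and its B and plasma cell markers summed to 70.8 FPKM. Over the 9 macrophage markers tested in Dapa against Case, the median log2 difference was −0.46, against −0.006 over all genes. It was above 0 for 2 of the 9, and none passed edgeR's quasi-likelihood test. The part of these markers in the values of the trio was not tested.

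**Figure D4:**
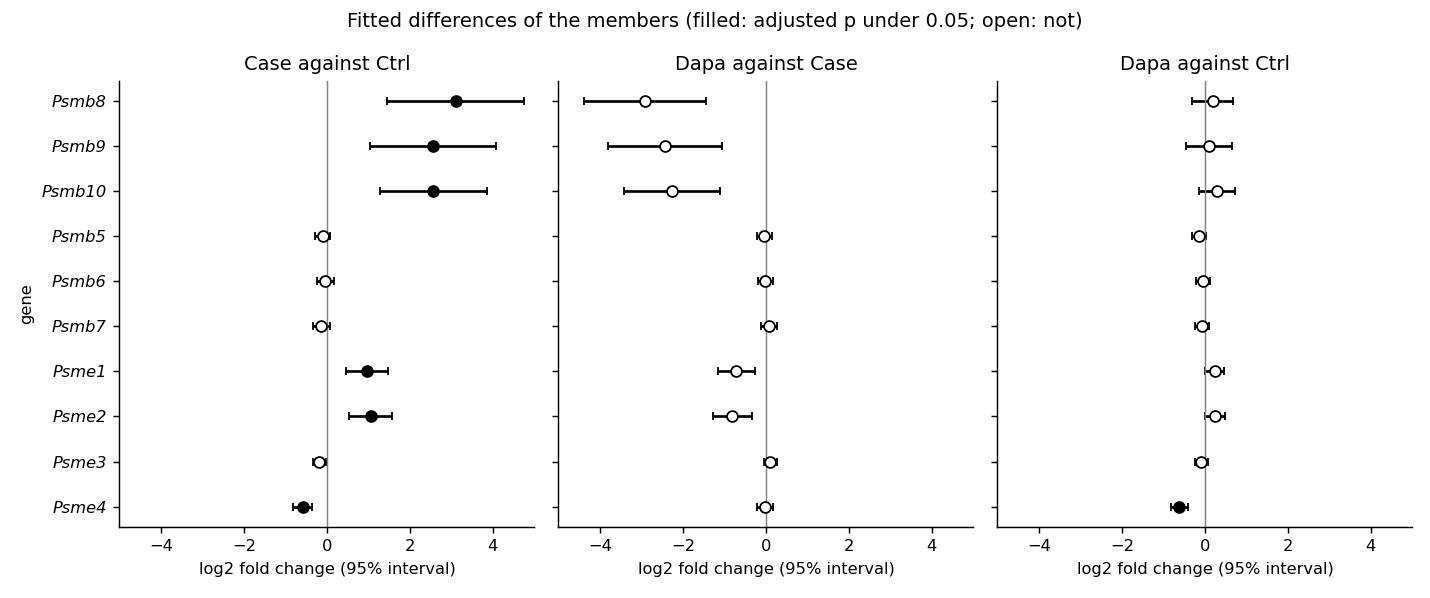
Fitted log2 fold changes of the 10 members (vertical axis) in the 3 comparisons, with bars for 95% intervals, filled points for an adjusted p under 0.05 and open points otherwise. The wide intervals of Psmb8, Psmb9 and Psmb10 lie above 0 in Case against Ctrl and below 0 in Dapa against Case, and only Psme4 is filled in Dapa against Ctrl.

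The last comparison, Dapa with Ctrl, asks where treated diabetic kidneys still differed from healthy ones. The inducible trio was near the Ctrl level and Psme4 was lower. Of the 10 members, 1 passed edgeR's quasi-likelihood test, and it was lower, against 29.1% of the 14647 genes tested (14.9% lower). The share of members called was thus below that of all genes. Psme4 ranged from 16.5 to 21.2 FPKM in Dapa, below all 5 Ctrl mice, as did 4.74% of genes. Its log2 difference was −0.61 (SE 0.09, 95% interval −0.82 to −0.41; edgeR adjusted p = 0.0009), and both contrasts with Ctrl rest on the same Ctrl mice. Kidney cell markers differed as well in Dapa: 6 of 8 proximal tubule markers were lower, against 14.9% of all genes, among them Lrp2 (−1.25), Slc27a2 (−0.81) and Slc22a6 (−0.78). Of 7 distal nephron markers 4 were higher, and of 5 podocyte markers 2 were higher, against 29.1% of all genes called in either direction. Of the immune cell markers that could be tested, Cd14 was higher (1.04; edgeR adjusted p = 0.0190), 1 of 9 for macrophages, and Trac was higher (1.63; 0.0110), 1 of 3 for T and NK cells. The dendritic cell marker Clec9a was lower (−1.68; edgeR adjusted p = 0.0289), 1 of 3 in its list. The part of these shifts in the value of Psme4 was not tested.

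Psmb8 differed from Ctrl by 0.19 on the log2 scale (95% interval −0.30 to 0.67), Psmb9 by 0.11 (−0.44 to 0.66) and Psmb10 by 0.30 (−0.14 to 0.73). The intervals of the trio thus reach 0.66 or more on the upper side. Psme2 lay above the highest Ctrl mouse in 6 of 6 Dapa mice, as did 9.79% of genes. The margin was small, with Dapa mouse 7 at 3.383 FPKM and Ctrl mouse 3 at 3.370 FPKM. FPKM is scaled to the library total only, without the TMM scaling of the fit. The log2 difference of Psme2 was 0.24 (95% interval −0.00023 to 0.47; edgeR adjusted p = 0.122). Psme1 lay above the highest Ctrl mouse in 4 of 6 Dapa mice, with a log2 difference of 0.24 (edgeR adjusted p = 0.104). Without Ctrl mouse 4, Psme1 passed (edgeR adjusted p = 0.0399), and limma on log2(FPKM + 1) called both caps as well as Psme4. The constitutive trio and Psme3 differed by −0.14 to −0.05 and did not pass.

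The other proteasome genes are read against the 13% of all genes called in Case against Ctrl, or 6.91% called lower, while 28.7% of all genes had an unadjusted p under 0.05. Of 11 other 20S core subunits tested, none passed in Case against Ctrl (1 had an unadjusted p under 0.05), and their median log2 difference was 0.05, against 0.03 over all genes tested. Of 20 tested subunits of the 19S cap, which unfolds ubiquitin-tagged proteins, 3 were lower, namely Psmd11 (−0.32), Psmc2 (−0.28) and Psmd2 (−0.27), and none was higher. The median of the 19S list was −0.19, and 7 of the 20 had an unadjusted p under 0.05, all with a value below 0. Of 9 genes for assembly factors and the inhibitor, none passed and 2 had an unadjusted p under 0.05. At an unadjusted p under 0.05, the 7 of 20 in the 19S list and the 2 of 9 in the assembly list lay near the 28.7% of all genes. With lists this short, no contrast between them is read from these counts. Pomp, the chaperone known for immunoproteasome assembly, differed by 0.15 (95% interval −0.14 to 0.45; edgeR adjusted p = 0.501). Psmb11, the thymus subunit, was not matched by symbol.

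Among 6 regulators of proteasome genes, Ddi2, a protease that activates Nfe2l1, was lower in Case by −0.56 (edgeR adjusted p = 0.0144), and so was Vcp by −0.28 (0.0280), which makes 2 of 6 called. Nfe2l1 itself differed by 0.29 (95% interval −0.01 to 0.59; edgeR adjusted p = 0.192). In Dapa against Ctrl 4 of the 6 were called, against 29.1% of all genes. Ddi2 was lower at −0.78 (edgeR adjusted p = 0.0006), as were Vcp at −0.31 (0.0063) and Ngly1, which removes sugar chains from proteins, at −0.30 (0.0281). Nfe2l2 was higher by 0.27 (95% interval 0.09 to 0.46; edgeR adjusted p = 0.0310), and the Dapa and Ctrl mice did not overlap in its FPKM, as was found in the higher direction for 9.79% of genes. Of the 20 subunits of the 19S list, 6 were lower, against 14.9% of all genes.

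The genes of peptide transport and loading, which handle the peptides that proteasomes make, were higher for the larger part. In Case, 6 of 9 passed and were higher, against 6.09% of all genes, with a list median of 1.07 in log2. They included Tap1, the transporter subunit encoded next to Psmb9, at 2.57 (SE 0.61; edgeR adjusted p = 0.0179). Tap2 (1.76), Tapbpl (1.59), B2m (1.17) and Tapbp (1.07) were also higher. Erap1, which trims the peptides, was the sixth (0.87). In Dapa against Case none of the 9 passed, 6 had an unadjusted p under 0.05 against 12.9% of all genes, and Tap1 differed by −2.02 (edgeR adjusted p = 0.212). In Dapa against Ctrl, Tap2 and Tapbp were higher, by 0.43 and 0.31, in a comparison where 29.1% of all genes were called.

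Of 8 tested genes in the list of the interferon-γ pathway and Nlrc5, 2 were higher in Case, against 6.09% of all genes, and both are regulators known to act on the inducible subunits. Irf1 differed by 2.00 (edgeR adjusted p = 0.0277) and Nlrc5, the class I transactivator, by 2.50 (0.0439). Both ranked the Case mice 3, 5, 1, 2, 4 and 6, with mice 1, 2, 3 and 5 above every Ctrl mouse. For Irf1, Case mouse 4 was above as well, at 2.62 FPKM against a Ctrl maximum of 2.41 FPKM. In Dapa against Case, Irf1 and Nlrc5 differed by −1.86 and −2.47, and did not pass (edgeR adjusted p = 0.194 and 0.223). Ifng, the cytokine itself, was too low to test, with 0 counts in every Ctrl and Dapa library and at most 6 counts in a Case library.

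**Figure D5:**
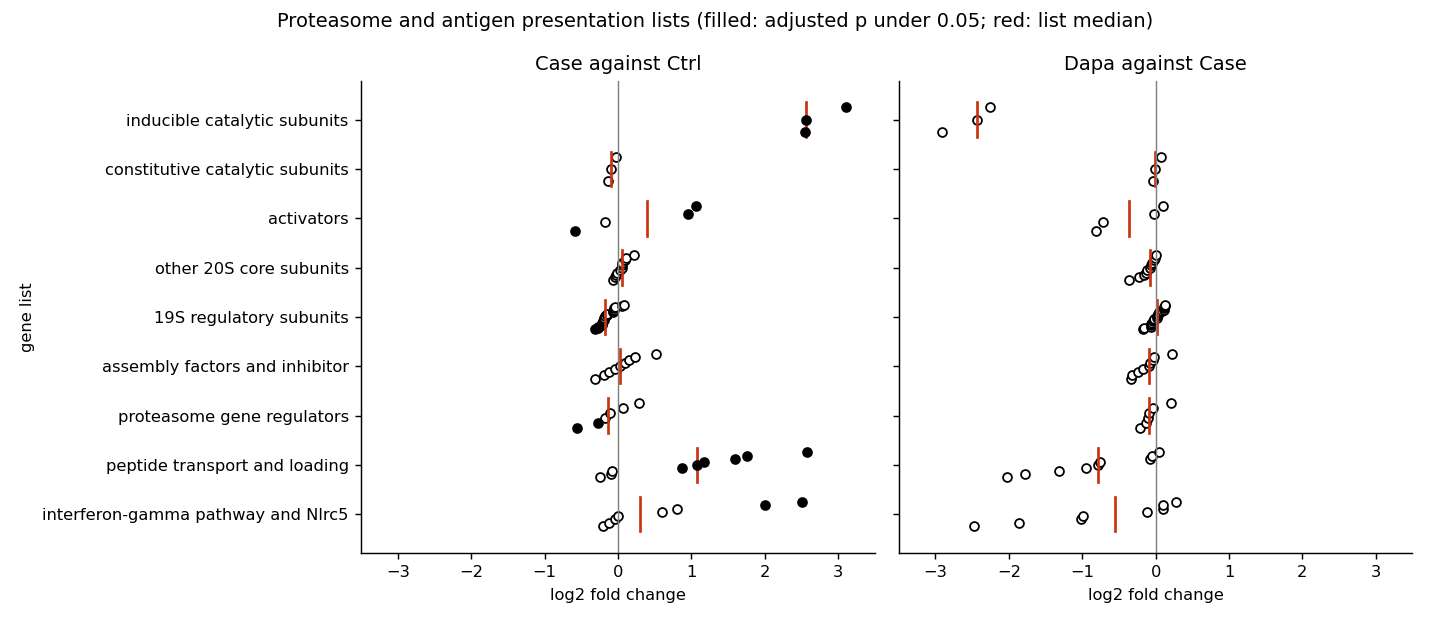
Log2 fold change of each tested gene (points) in 9 lists for Case against Ctrl and Dapa against Case, filled at an adjusted p under 0.05, with a red line at the list median. The other 20S subunits (median 0.05 in Case against Ctrl) and the 19S subunits (median −0.19) stay near 0, while the inducible subunits (median 2.56) and the loading genes (median 1.07) lie to the right.

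Genes with the pattern most like a trio over the 17 mice were ranked by Pearson's r of log2(FPKM + 1) with the trio's mean standardised level, among 11445 genes with a mean FPKM of at least 1. For Psmb8, Psmb9 and Psmb10 these were Iigp1 (0.989), Gbp3 (0.988), Gbp2 (0.985), Gbp6 (0.984), Il18bp (0.973) and Igtp (0.972), of which Iigp1, Igtp and the Gbp genes encode interferon-inducible GTPases. Over the 12 db/db mice alone r was 0.974 to 0.991. For Psmb5, Psmb6 and Psmb7 the closest were Trnau1ap (0.835), Chchd2 (0.829), Emc4 (0.792), 2410015M20Rik (0.785), Psmb1 (0.775), a further 20S subunit, and Ccdc151 (0.769). The first set of r values rests on the contrast between a few high Case mice and the rest, and in the second the range of levels is small.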

How the data were processed

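Strand-specific libraries of oligo(dT)-enriched mRNA from 17 kidneys were aligned by the authors to mm10 with HISAT2 and counted with Stringtie, and the deposited table gives raw counts and FPKM per gene. The FPKM of the authors followed count over library total and gene length to within 0.088%, with no further scaling. Groups were taken from the labels. The 3 genes split over 2 lines each were left out, which leaves 22558 of 22561. For each pair of groups, counts were fitted with edgeR 4.0.16 in R 4.3.3 (filterByExpr for low counts, TMM scaling, a quasi-likelihood test, and Benjamini-Hochberg adjustment across every gene tested), and a call means an adjusted p under 0.05. Fold changes are Case minus Ctrl, Dapa minus Case and Dapa minus Ctrl on the log2 scale. Tests were tried on simulated data first. The alternatives tried were edgeR's exact test, DESeq2 1.42.0, limma 3.58.1 on log2(FPKM + 1) and log2(FPKM + 0.1), other scalings and filters, and each replicate left out. Shares, spans and likeness values were computed with Python 3.11.15 and pandas 2.3.3 and carry no test. Promoters come from RefSeq (GRCm38.p6) and lengths from GENCODE vM21.

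The members and gene lists were chosen with earlier results of these data known. By rule the text names all 10 members, up to 5 called genes of each other list (6 for peptide loading, the sixth added after its value was seen), a few fixed genes, and the 6 genes most like each trio. Marker lists are given by counts and sums, with names for the markers called in Case against Ctrl, the immune cell markers and 3 of the tubule markers called in Dapa against Ctrl, and Itgam and S100a9, which were not called. All but the first of these were named after their values were seen. No replicate number was used to pair mice. The smallest mean chi-square per gene between libraries of a group was 15.0 times that of sampling noise, so no library was a repeat of another. The p-values measure the spread between the mice of each group. Of the gene lists, 1 gene is not reported here.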

Additional observations from a re-analysis of the deposited data

Results flagged for a closer look

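Psme4 in Dapa mouse 7 stood at 21.2 FPKM, apart from the other 5 Dapa mice at 16.5 to 18.2 FPKM, with a gap to its neighbour of 0.63 of the group's range. It was the only sample set apart in this way by Dixon's ratio among the 30 sets of 1 member in 1 group, and chance sets apart about 1 in 20. The level of this mouse was still below the lowest Ctrl mouse, at 21.8 FPKM.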

How the results depend on the processing

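In Case against Ctrl, where 6 members were called, limma on log2(FPKM + 1) called 3 (without Psmb8, Psmb9 and Psmb10), a fit with the replicate number as a block on the mice numbered 1 to 5 called 4 (without Psmb9 and Psme4, edgeR adjusted p = 0.0789 and 0.0640), and fits without single mice called 3 to 6. The replicate numbers do not pair the mice (correlations of same-numbered deviations −0.067 to −0.043). In Dapa against Case, where none was called, DESeq2 called 4 and edgeR's exact test 3, and all 12 fits without single mice called 0. In Dapa against Ctrl, where 1 was called, limma called 3 with either pseudocount, a fold above 2 left 0, and fits without single mice called 1 to 2, with 2 without Ctrl mouse 4. Of 740 alternatives for single members, 681 kept direction and side of the threshold, 21 lost a call, 12 gained one and 26 changed sign, each of the last for a difference near 0. In Case against Ctrl, Psmb6 (−0.03) became 0.0064 with upper quartile scaling, 0.045 and 0.046 with limma at pseudocounts 1 and 0.1, and 0.024 with a term for the 7 libraries with mismatched split genes, and ran from −0.093 to 0.012 without single mice. In Dapa against Case, the same limma fits and term gave 0.014, 0.015 and 0.0025 for Psmb6 and 0.0044, 0.0048 and 0.025 for Psme4, and without single mice Psmb6 ran from −0.051 to 0.020 and Psme4 from −0.069 to 0.034. In Dapa against Ctrl, limma gave 0.059 and 0.061 for Psmb6, 0.039 and 0.040 for Psmb7, and 0.023 and 0.024 for Psme3, and without single mice Psmb6 ran from −0.10 to 0.0073 and Psmb9 from −0.10 to 0.21. The pair shares depend on length by construction. From counts they averaged 8.51%, 37.1% and 10.4% for Psmb8 (Ctrl, Case, Dapa), 5.08%, 21.96% and 5.58% for Psmb9, and 5.19%, 23.8% and 6.52% for Psmb10. Per transcript length, added after seeing the data, Psmb8 averaged 4.89% in Ctrl and 6.05% in Dapa, and Psmb10 4.62% and 5.81%. The limma fits took FPKM, scaled to the library total, whereas the main fit used TMM scaling. Mean FPKM of Psmb6 was likewise higher in Case (27.3) than in Ctrl (26.4). Where no construction is named, the cause was not tested. Counts of 49 to 198 per library for the inducible subunits outside the high Case mice limit the precision there.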
